A study of Homo sapiens with 6 samples.

Results

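A set of 9 genes of double-stranded RNA sensing was followed in MDA-MB-453 cells after *DUSP6* siRNA: the receptors *DDX58*, *IFIH1*, *DHX58* and *TLR3*, the adaptors *MAVS* and *TICAM1*, and the binding proteins *EIF2AK2*, *ZBP1* and *ADAR*. They were chosen by name, as the rows of the deposited table with these gene symbols, and all 9 were found among its 22807 genes. Of these, 7 reached a mean normalized value of at least 1 over the 6 libraries and were tested, and *TLR3* and *ZBP1* did not. MDA-MB-453 is an established HER2+ breast cancer cell line, and the labels give the genotype WT for all libraries. RNA was sequenced in 3 libraries after transfection with scrambled siRNA and in 3 after transfection with siRNA against *DUSP6*, a phosphatase of MAP kinases. The study used several different siRNAs per group, and the labels do not say which of them each library received. It lists a concentration for the *DUSP6* siRNAs and gives none for the control siRNAs, so the loss of *DUSP6* and a difference between the siRNA preparations cannot be told apart. Nothing in the labels states that the libraries of a group came from separate cultures. The p-values thus measure the spread between libraries, which may be technical or come from the different siRNAs, and these cannot be told apart.

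Cells recognise double-stranded RNA, a by-product of viral replication and of transcribed repeats, with several receptors. RIG-I (encoded by *DDX58*, now named *RIGI*) and MDA5 (*IFIH1*) bind it in the cytosol and signal through MAVS on the mitochondrial surface, while TLR3 binds it in endosomes and signals through TRIF (*TICAM1*), and both routes lead to interferon genes. The kinase PKR (*EIF2AK2*) stops translation when bound to double-stranded RNA, ZBP1 binds left-handed Z-form RNA and can start cell death, and ADAR edits adenosines in double-stranded RNA and so keeps the cell's own transcripts from being sensed. Many of these genes are known interferon targets.

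With *DUSP6* siRNA, the 3 RIG-I-like receptors, the kinase *EIF2AK2* and the editor *ADAR* rose, and the adaptor *TICAM1* did not pass the test. The adaptor *MAVS* was slightly lower, in a call that was lost under 10 of 15 alternatives. Of the 7 tested members, 5 were called higher and 1 lower (limma, Benjamini-Hochberg adjusted p under 0.05 over 12862 genes), where 19.7% of all genes tested were called higher and 24.7% lower. A normalized value here is a read count divided by the library size in units of 1e+06 reads, with that size scaled by edgeR's TMM method, and fold changes are on the log2(value + 1) scale, which makes the change of genes with low values smaller. All 3 *DUSP6* siRNA libraries stood above all 3 scrambled siRNA libraries for 5 tested members and below them for 1, against 26.7% and 31.1% of all genes tested. The median log2 fold change over all genes tested was -0.01, and it lay between -0.05 and 0.03 under every alternative tried. *DUSP6* itself had normalized values of 209, 110 and 114 in the scrambled siRNA libraries and 39.4, 24.5 and 35.2 in the *DUSP6* siRNA libraries, so the targeted gene was lower in every library (log2 fold change -2.05, limma adjusted p = 3.09e-04).

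**Figure D1:**
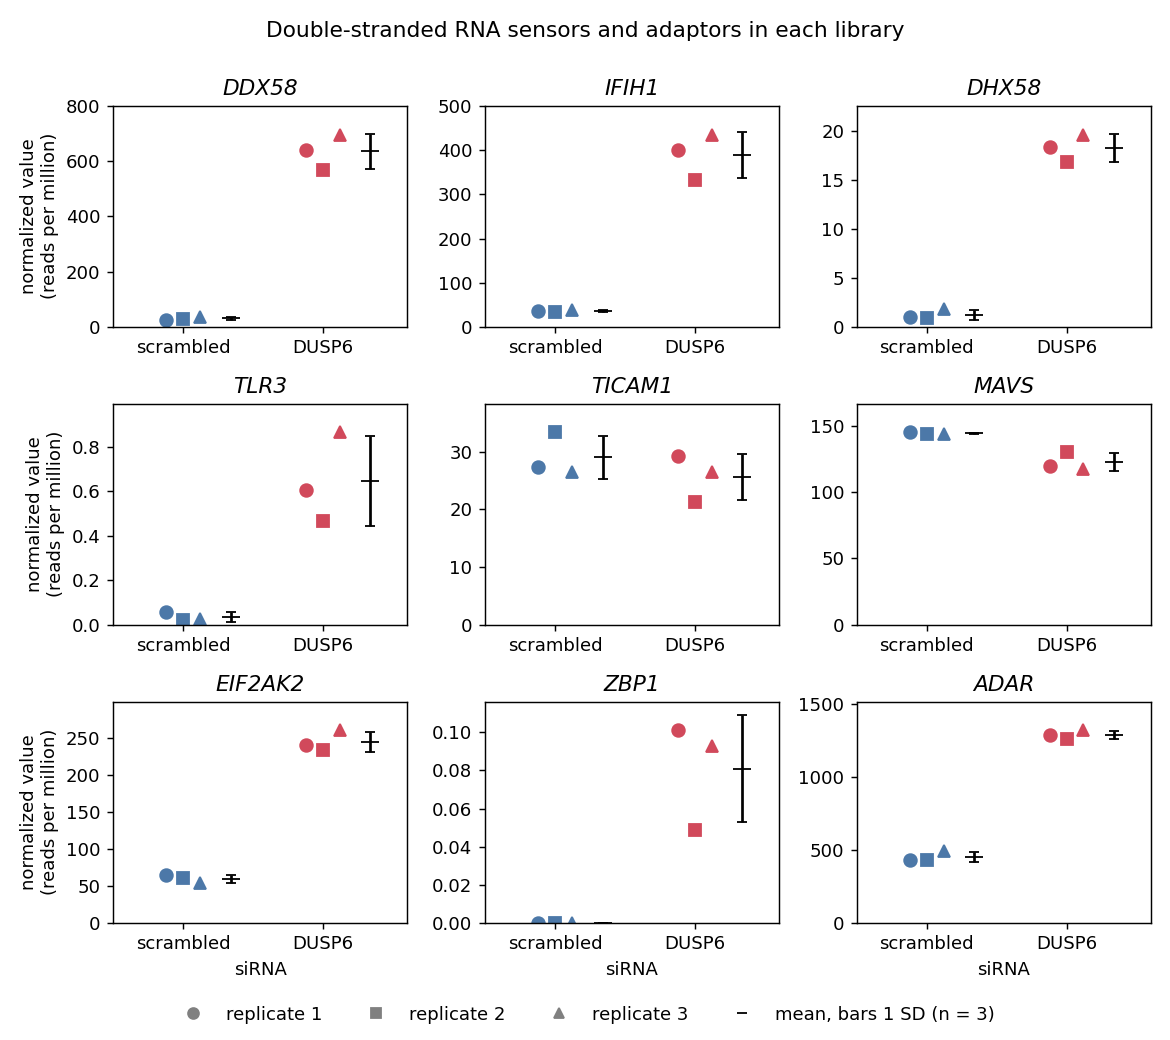
Normalized values (reads scaled by library size, linear axes from 0, each gene on its own axis) of the 9 members in each library, with the mean and 1 SD (n = 3 per group) beside the points. The groups are apart for every member except *TICAM1*, *MAVS* is the member with its *DUSP6* siRNA libraries below the others, and *DUSP6* siRNA replicate 2 (square) is the lowest of its group in 8 of the 9 panels.

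The promoters of the members are shown first, since transcription factors of the interferon pathway bind short motifs near the starts of their target genes. RefSeq windows of 300 bases, 250 before to 50 after each gene's start on GRCh38.p14, were at hand for 7 of the 9 members, and not for *DHX58* and *ZBP1*. On both strands, a script looked for the core of the interferon-stimulated response element, GAAANNGAAA, for the gamma-activated site TTCNNNGAA, which reads the same on both strands, and for the NF-kB consensus by its name. A second form of the response element with a free second base, GNAANNGAAAC, was added after the *DDX58* promoter had been seen. Among all 35116 RefSeq windows of this length, GAAANNGAAA was found in 3.57%, GNAANNGAAAC in 1.72%, TTCNNNGAA in 7.66% and the NF-kB consensus in 5.91%. The 5 sequences below run from 250 bases before to 10 bases after the start, 5′ to 3′ on the strand of the gene, and capitals mark matches to either form of the response element. They were chosen to show the 4 members with such a match and, in *MAVS*, one without it. They lie at chr9:32526187-32526446 on the minus strand (*DDX58*), chr2:162318675-162318934 on the minus strand (*IFIH1*), chr2:37156971-37157230 on the minus strand (*EIF2AK2*), chr4:186068906-186069165 on the plus strand (*TLR3*) and chr20:3846584-3846843 on the plus strand (*MAVS*).
DDX58: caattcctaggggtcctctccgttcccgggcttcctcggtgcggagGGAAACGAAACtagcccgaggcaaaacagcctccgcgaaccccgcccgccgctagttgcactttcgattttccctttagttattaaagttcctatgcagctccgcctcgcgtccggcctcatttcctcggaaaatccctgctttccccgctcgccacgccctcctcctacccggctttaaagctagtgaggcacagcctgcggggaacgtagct
IFIH1: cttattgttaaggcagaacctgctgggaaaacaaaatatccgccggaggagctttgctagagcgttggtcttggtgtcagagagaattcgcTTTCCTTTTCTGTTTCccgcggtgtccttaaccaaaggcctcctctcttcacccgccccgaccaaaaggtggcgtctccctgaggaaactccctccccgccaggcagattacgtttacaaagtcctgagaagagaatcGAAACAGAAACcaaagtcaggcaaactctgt
EIF2AK2: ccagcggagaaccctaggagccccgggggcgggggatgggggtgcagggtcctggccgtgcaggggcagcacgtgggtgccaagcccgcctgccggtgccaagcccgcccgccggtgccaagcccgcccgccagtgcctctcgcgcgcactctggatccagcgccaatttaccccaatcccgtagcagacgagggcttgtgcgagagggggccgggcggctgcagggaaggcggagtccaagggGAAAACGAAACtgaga
TLR3: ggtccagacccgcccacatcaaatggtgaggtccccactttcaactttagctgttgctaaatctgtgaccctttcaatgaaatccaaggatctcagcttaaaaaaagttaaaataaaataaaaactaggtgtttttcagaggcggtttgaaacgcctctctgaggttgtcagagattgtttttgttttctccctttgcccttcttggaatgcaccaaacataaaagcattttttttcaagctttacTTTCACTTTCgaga
MAVS: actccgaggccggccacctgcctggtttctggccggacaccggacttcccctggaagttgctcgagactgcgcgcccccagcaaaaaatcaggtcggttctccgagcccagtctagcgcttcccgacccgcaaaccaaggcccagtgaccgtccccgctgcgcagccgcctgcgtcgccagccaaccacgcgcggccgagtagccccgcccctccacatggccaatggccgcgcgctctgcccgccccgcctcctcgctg

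In *IFIH1*, the capitals nearest the start, from base -21 to -11, fit both forms of the element. The longer run of capitals in *IFIH1* holds a pair of overlapping matches on the opposite strand, from -159 to -150 and from -153 to -144. *EIF2AK2* has a match to both forms that spans its start, from -6 to 5, and *TLR3* has one on the opposite strand from -4 to 6. *DDX58* fits only the second form, with GGAAACGAAAC from -204 to -194. Matches to the NF-kB consensus, left in lower case, lie from -76 to -67 on the opposite strand in both *DDX58* and *IFIH1*, and from -120 to -111 in the window of *TICAM1*. The window of *TLR3* also holds TTCAATGAA from -178 to -170 and TTCTTGGAA from -50 to -42, both of the form of the gamma-activated site. The window of *MAVS* and all 3 windows of *ADAR* held none of the motifs searched. A match of letters does not show that a factor binds there, and a window without one says nothing of sites elsewhere.

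*DDX58* (Entrez gene 23586, chr9:32455302-32526196, minus strand, GRCh38.p14), the gene of RIG-I, rose most of the 7 tested members. Replicates 1 to 3 had normalized values of 25.5, 30.0 and 35.7 with scrambled siRNA and 641, 569 and 696 with *DUSP6* siRNA, and values below are given in the same order. The groups were far apart, and the lowest *DUSP6* siRNA library was 15.9 times the highest scrambled siRNA library. The mean went from 30.4 ± 5.11 to 635 ± 63.4 (SD, n = 3 each), a 20.9-fold difference of means, with a log2 fold change of 4.35 (standard error 0.13, 95% confidence interval 4.05 to 4.64, limma adjusted p = 1.67e-07). By size of increase, *DDX58* took place 21 of the 12862 genes tested. A gene without a name in GENCODE shares 43.2% of the exon bases of *DDX58*, and 2 RefSeq long noncoding RNA genes overlap the span of *DDX58*. The authors counted on RefSeq genes, neither noncoding gene has a row in the table, and how reads were split between them was not tested, so the level of *DDX58* is uncertain.

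*IFIH1* (Entrez gene 64135, chr2:162267074-162318684, minus strand) encodes MDA5, which binds long duplexes. Its normalized values were 35.4, 33.4 and 37.7 with scrambled siRNA and 400.0, 332 and 435 with *DUSP6* siRNA. Here too no library of one group came near the other. The mean rose from 35.5 ± 2.19 to 389 ± 52.6 (SD, n = 3 each), 11.0-fold, with a log2 fold change of 3.41 (standard error 0.11, 95% confidence interval 3.15 to 3.67, limma adjusted p = 2.90e-07), place 31 by increase.

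*DHX58* (Entrez gene 79132, chr17:42101411-42112714) encodes LGP2, a receptor without the signalling domains of the other two that modulates both. It was near the filter with scrambled siRNA, with normalized values of 1.04, 0.862 and 1.80 against 18.4, 16.8 and 19.7 with *DUSP6* siRNA. The reads behind them were 70, 45 and 149 against 909, 1377 and 1272. The mean rose from 1.23 ± 0.495 to 18.3 ± 1.41 (SD, n = 3 each), 14.8-fold, and the log2 fold change was 3.13 (standard error 0.16, 95% confidence interval 2.77 to 3.49, limma adjusted p = 3.15e-06). With a mean value of at least 10 as the filter, *DHX58* was no longer tested. The edgeR quasi-likelihood test on the reads, which adds no 1 to the value, gave a log2 fold change of 3.90.

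**Figure D2:**
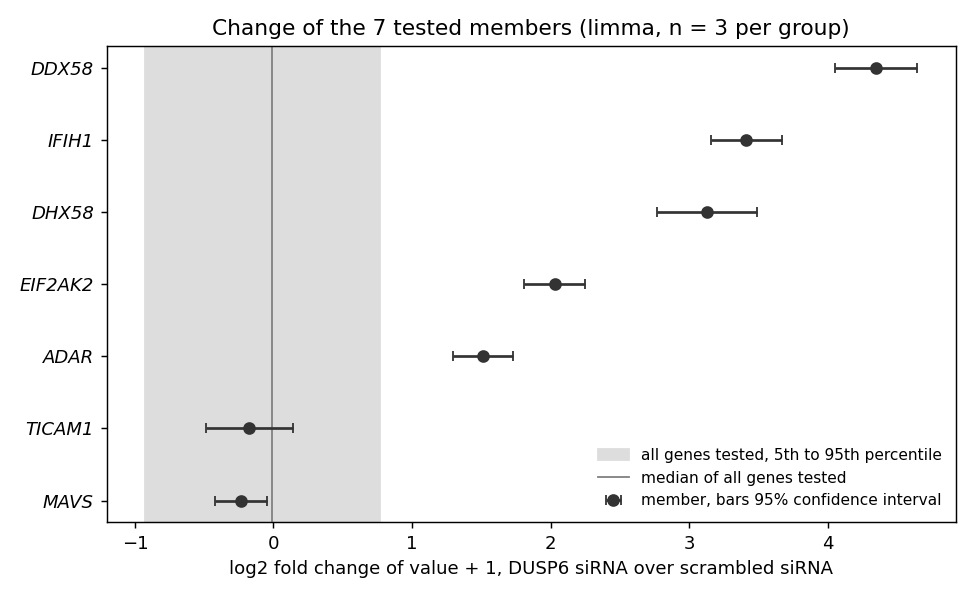
Log2 fold change on the log2(value + 1) scale (horizontal axis) of the 7 tested members with 95% confidence intervals (bars, limma, n = 3 per group), beside the median (line) and the range from the 5th to the 95th percentile (grey band) of all 12862 genes tested. *DDX58*, *IFIH1*, *DHX58*, *EIF2AK2* and *ADAR* lie beyond the band, which runs from -0.93 to 0.77, while *TICAM1* and *MAVS* lie inside it.

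The 3 receptors did not rise by the same factor. Ratios of member pairs, here and below, were taken on value + 1. In the scrambled siRNA libraries *IFIH1* was slightly above *DDX58*, with a log2 ratio of *IFIH1* to *DDX58* within a library of 0.45, 0.15 and 0.08, and in the *DUSP6* siRNA libraries it was below, at -0.68, -0.78 and -0.67. This ratio of values, not corrected for transcript length, fell by 0.94 on average, from 0.23 ± 0.20 to -0.71 ± 0.06 (SD, n = 3 each, two-sided exact permutation test p = 0.1, adjusted over 5 pairs p = 0.1), and 0.1 is the smallest p that 3 libraries against 3 allow. The alternatives moved that difference between -1.01 and -0.82. The log2 ratio of *DHX58* to *DDX58* also fell, from -3.82 ± 0.20 to -5.04 ± 0.04 (SD, n = 3 each, exact permutation p = 0.1, adjusted p = 0.1). That difference of -1.22 shrank to -0.54 with a pseudocount of 0.1 in place of 1, so its size depends on how the low values of *DHX58* are treated.

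Downstream of RIG-I and MDA5, *MAVS* (Entrez gene 57506, chr20:3846834-3876118, plus strand) encodes the mitochondrial adaptor on which both converge. It was nearly equal in the scrambled siRNA libraries, at 145, 144 and 144, and lower in the *DUSP6* siRNA libraries, at 120, 130 and 117. The groups did not overlap in these scaled values, yet the difference was small. The mean was 144 ± 0.613 against 122 ± 6.82 (SD, n = 3 each), with a log2 fold change of -0.24 (standard error 0.08, 95% confidence interval -0.42 to -0.05, limma adjusted p = 0.0437). The call was lost with quantile normalization (-0.09, adjusted p = 0.362), in the edgeR quasi-likelihood test on the reads (-0.20, adjusted p = 0.0719) and without any 1 library other than scrambled siRNA replicate 3. The TMM scaling itself differed between the groups. Summed values per library were 1033110 to 1135120 with scrambled siRNA and 920927 to 924989 with *DUSP6* siRNA. No alternative used library size alone, so whether *MAVS* is lower without this scaling was not tested. Relative to its adaptor, *DDX58* changed from fewer to more reads. The log2 ratio of *DDX58* to *MAVS* was -2.46, -2.23 and -1.98 with scrambled siRNA and 2.41, 2.12 and 2.56 with *DUSP6* siRNA, a difference of 4.58 (exact permutation p = 0.1, adjusted p = 0.1).

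*TLR3* (Entrez gene 7098, chr4:186069156-186088073, plus strand), the endosomal receptor, was barely detected and stayed under the filter. The libraries held 4, 1 and 2 reads with scrambled siRNA and 30, 38 and 56 reads with *DUSP6* siRNA, which are normalized values of 0.0595, 0.0192 and 0.0241 against 0.607, 0.465 and 0.865. All 3 *DUSP6* siRNA libraries were above all 3 others (two-sided exact permutation test, p = 0.1). Pooled over libraries, 124 reads against 7 gave a ratio of normalized values of 18.3, with a 95% interval of 8.62 to 46.5 that covers counting error only. The edgeR quasi-likelihood test on the reads without a filter, added after the data had been seen, gave an adjusted p of 1.83e-06. At these reads the level remained under 1 in every library, so the ratio is one between very low values.

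*TICAM1* (Entrez gene 148022, chr19:4815932-4831712), which encodes TRIF, the adaptor of TLR3, was the one member whose groups overlapped. Its normalized values were 27.3, 33.3 and 26.4 with scrambled siRNA and 29.2, 21.3 and 26.5 with *DUSP6* siRNA. The mean was 29.0 ± 3.73 and 25.7 ± 3.97 (SD, n = 3 each), and the log2 fold change of -0.18 had a 95% confidence interval of -0.49 to 0.14 (limma adjusted p = 0.330). The upper end of that interval is far below the change of every member called higher. The log2 ratio of value + 1 of *TLR3* to *TICAM1* was -4.85 ± 0.19 and -4.01 ± 0.19 (SD, n = 3 each). The difference of 0.84 became 2.63 with a pseudocount of 0.1 (exact permutation p = 0.1, adjusted p = 0.1). All values of *TLR3* lie under the added 1, so these ratios mostly reflect the pseudocount and the level of *TICAM1*. They do not give the ratio of the values themselves.

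*EIF2AK2* (Entrez gene 5610, chr2:37099210-37156980, minus strand), the gene of PKR, rose in all libraries. Its normalized values were 64.1, 60.8 and 53.1 with scrambled siRNA and 240.5, 234 and 260.1 with *DUSP6* siRNA. The *DUSP6* siRNA libraries lay close together, well above the others. The mean rose 4.13-fold, from 59.3 ± 5.66 to 245 ± 13.7 (SD, n = 3 each), with a log2 fold change of 2.03 (standard error 0.10, 95% confidence interval 1.81 to 2.25, limma adjusted p = 2.34e-06), place 83 by increase. Of its exon bases, 3.95% are shared with neighbouring genes.

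*ZBP1* (Entrez gene 81030, chr20:57603852-57620426), the sensor of Z-form nucleic acids, had 0 reads in each of the 3 scrambled siRNA libraries and 5, 4 and 6 reads in the *DUSP6* siRNA libraries. These are normalized values of 0.101, 0.0489 and 0.0927, a few reads in libraries of at least 45546981. Pooled over libraries, the normalized value of the 15 reads was 5.16 times a floor of 3 reads over the scrambled siRNA group. The floor covers counting error of the scrambled siRNA group only. The counting error of the 15 reads is left out, so 5.16 is not a lower bound. A two-sided exact permutation test over libraries gave p = 0.1, and edgeR without a filter an adjusted p of 0.00628. *ZBP1* was not detectable at this depth with scrambled siRNA.

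*ADAR* (Entrez gene 103, chr1:154582057-154627997, minus strand), the editor, was the most abundant member in both groups. Its normalized values were 426, 432 and 492 with scrambled siRNA and 1283, 1255 and 1317 with *DUSP6* siRNA. The gap between the groups was many times the spread within either. The mean rose 2.86-fold, from 449.8 ± 36.5 to 1285 ± 30.8 (SD, n = 3 each), with a log2 fold change of 1.51 (standard error 0.10, 95% confidence interval 1.30 to 1.73, limma adjusted p = 9.47e-06), place 127 by increase. *ADAR* makes an interferon-inducible long form and a constitutive short form, which values per gene cannot tell apart. A RefSeq long noncoding RNA gene without a row in the table overlaps the span of *ADAR*. The log2 ratio of *EIF2AK2* to *ADAR* went from -2.90 ± 0.25 to -2.39 ± 0.05 (SD, n = 3 each), a difference of 0.51 (exact permutation p = 0.1, adjusted p = 0.1) that lay between 0.36 and 0.61 under the alternatives.

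**Figure D3:**
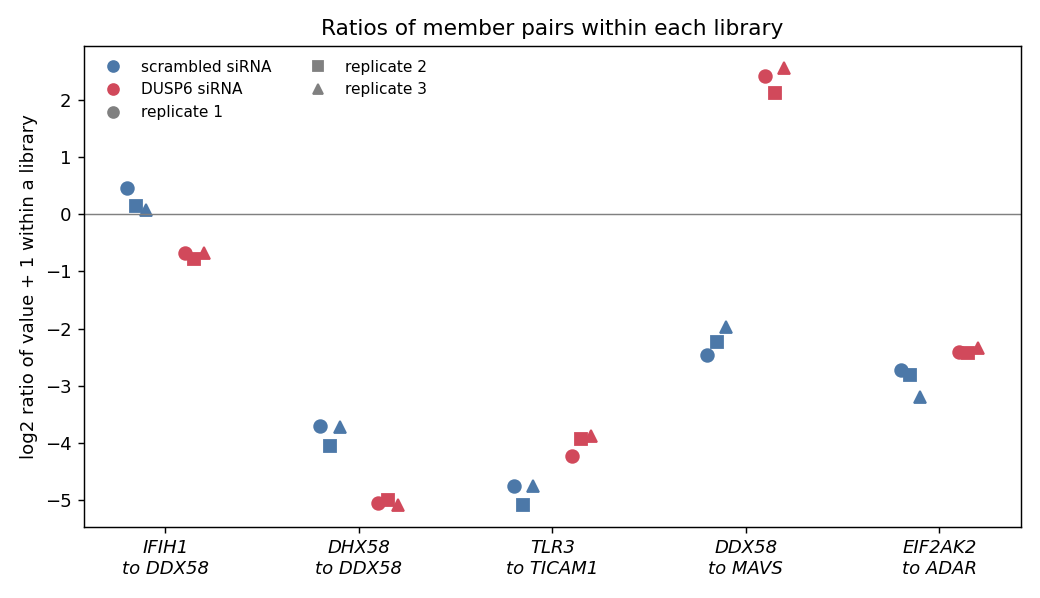
Log2 ratio of value + 1 of one member to another within each library (vertical axis), for 5 pairs, with scrambled siRNA in blue, *DUSP6* siRNA in red and a marker shape for each replicate number. The groups are apart in every pair, the ratio of *IFIH1* to *DDX58* crosses 0, and that of *DDX58* to *MAVS* moves from -2.22 to 2.36 on average.

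Levels of different genes were compared per kilobase of the GENCODE canonical transcript. With scrambled siRNA the order by mean normalized value per kilobase was *ADAR* (68.1), *MAVS* (12.3), *TICAM1* (10.8), *IFIH1* (9.91), *DDX58* (6.57), *EIF2AK2* (5.95), *DHX58* (0.476), *TLR3* (0.0057) and *ZBP1* (0). *MAVS* and *TICAM1*, *TICAM1* and *IFIH1*, and *DDX58* and *EIF2AK2* are neighbours in this order whose libraries overlapped. With *DUSP6* siRNA the order was *ADAR* (194), *DDX58* (137), *IFIH1* (109), *EIF2AK2* (24.5), *MAVS* (10.4), *TICAM1* (9.56), *DHX58* (7.06), *TLR3* (0.107) and *ZBP1* (0.0378), and only *MAVS* and *TICAM1* overlapped. By mean per kilobase, *DDX58* and *IFIH1* were below both adaptors with scrambled siRNA, though the libraries of *IFIH1* and *TICAM1* overlapped. With *DUSP6* siRNA both receptors were above both adaptors. The order rests on the canonical transcript of each gene, and whether these cells use it was not tested. The lowest *DDX58* library with *DUSP6* siRNA (123 per kilobase) was only just above the highest *IFIH1* library (122).

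**Figure D4:**
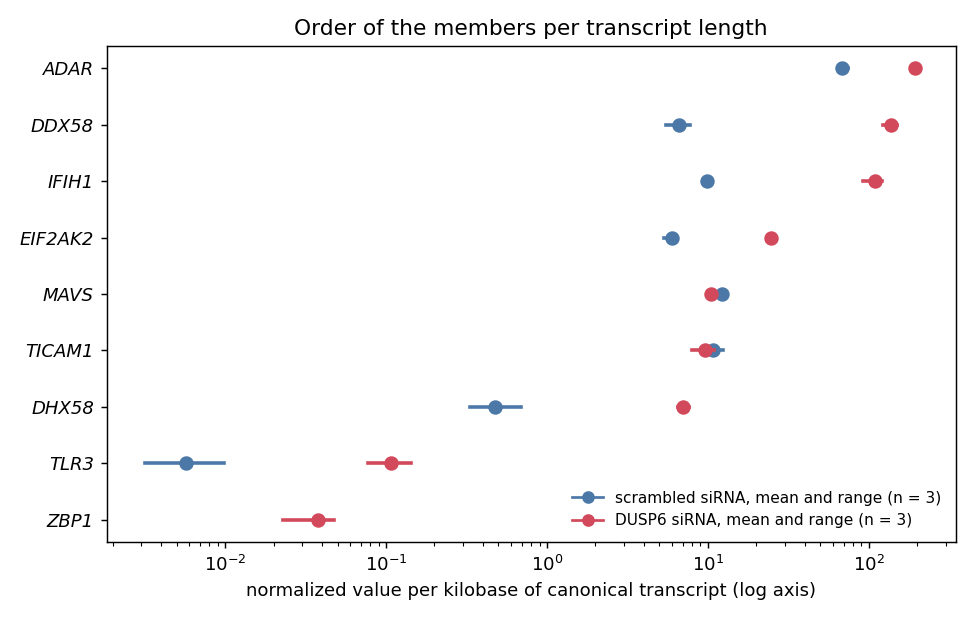
Mean (points) and range (lines) over 3 libraries of the normalized value per kilobase of canonical transcript (horizontal, log axis) of the 9 members, with scrambled siRNA in blue and *DUSP6* siRNA in red. *DDX58* and *IFIH1* move from below *MAVS* to above it, *ADAR* is highest in both groups, and *ZBP1* with scrambled siRNA, at 0, is not drawn.

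*DUSP6* siRNA replicate 2 was the lowest of its group for 8 of the 9 members, with *MAVS* the exception, and for 6 of the 7 tested ones (85.7%). Over all genes tested it was the lowest in 33.5%, and over the genes called higher in 17.8%. It was also the library with the lowest *DUSP6* value. *DUSP6* siRNA replicate 3 was the highest of its group for 6 of the 9 members. The spread this made was small beside the increases: the highest *DUSP6* siRNA library was 1.22 times the lowest for *DDX58* and 1.31 times for *IFIH1*. The part of the *DUSP6* level in this order was not tested.

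The genes with the profile most like that of each called member were found by the root mean square distance of centred log2(value + 1) over the 6 libraries. Profiles were not scaled, so a near gene is mainly one with a log2 fold change close to that of the member. For *ADAR* and *STAT2* it was 1.51 each. Shared regulation was not tested. For *DDX58* these were *IFIT1B* and *HLA-B* (0.257 each), which both have close relatives that can share reads with them. The gene nearest to *IFIH1* was *PARP14* (0.0979), and those nearest to *DHX58* were *TAP1* (0.0878) and *IFIT5* (0.120). *EIF2AK2* was nearest to *CCN3*, a secreted matrix protein, and *NR4A2*, a nuclear receptor, at 0.116 and 0.117. *ADAR* was nearest to *PCGF5*, a Polycomb subunit (0.0747), and to *STAT2* (0.101). *MAVS* was nearest to *DLD*, a mitochondrial dehydrogenase subunit (0.0108), and *ELP4*, of the Elongator complex (0.0121). STAT2 is a transcription factor of the interferon response, and TAP1 carries peptides for antigen presentation.

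The genes that surround the sensors in their pathways moved in both directions. Among kinases, TRAF proteins and transcription factors that relay the signal below *MAVS* and *TICAM1*, 5 of 25 tested genes were called higher and 6 lower, with a median log2 fold change of 0.03. The shares called in all genes tested, given above, are close to these. The transcription factor *IRF7*, which drives interferon-alpha genes, rose from a mean of 24.4 ± 7.65 to 163 ± 32.1 (SD, n = 3 each, log2 fold change 2.71, limma adjusted p = 2.74e-05). *IKBKG* (log2 fold change 0.62, adjusted p = 0.00248), the scaffold of the IKK complex, also rose, though a near-identical pseudogene can share its reads. *IKBKE*, a kinase that activates IRF3, fell from 27.4 ± 1.51 to 8.08 ± 1.27 (log2 fold change -1.65, adjusted p = 2.37e-05), and *TAB2*, of the TAK1 complex, fell by 1.35 on the log2 scale (adjusted p = 3.83e-05).

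Of the cofactors that help RIG-I, MDA5 or MAVS, 7 of 21 tested genes were called higher and 5 lower, with a median log2 fold change of 0.02. *DDX60*, a helicase that binds viral RNA, rose from 3.32 ± 1.98 to 203 ± 15.2 (SD, n = 3 each, log2 fold change 5.65, limma adjusted p = 1.51e-06), and its paralog *DDX60L* from 3.56 ± 0.682 to 119 ± 37.5 (4.68, adjusted p = 2.16e-06). *TRIM14*, a MAVS-binding protein, and *YWHAH*, a 14-3-3 protein that carries MDA5 to the mitochondria, each fell by 0.93 (adjusted p = 0.00367 and 5.92e-04). Of the inhibitors of the same receptors and adaptor, 6 of 19 were called higher and 2 lower, with a median of 0.03. *NLRC5*, which also activates MHC class I genes, had a log2 fold change of 2.71 (adjusted p = 3.19e-05), and *TNFAIP3*, the ubiquitin editor A20, one of 1.62 (adjusted p = 3.62e-05). The deubiquitinase *USP3* fell by 0.82 (adjusted p = 6.66e-04) and the mitochondrial ubiquitin ligase *MARCHF5* by 0.42 (adjusted p = 0.00722).

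Around *TLR3*, 17 of 18 genes of the other Toll-like receptors and their partners were in the table and 7 were tested, of which 2 were called higher and 1 lower (median log2 fold change 0.26). *UNC93B1*, which carries TLR3 to endosomes, rose from 9.76 ± 1.39 to 33.0 ± 3.21 (SD, n = 3 each, log2 fold change 1.66, limma adjusted p = 2.61e-05). *MYD88*, the adaptor of most other Toll-like receptors but not of TLR3, had a log2 fold change of 0.61 (adjusted p = 0.00345), and the chaperone *CNPY3* fell by 0.29 (adjusted p = 0.0287). Of 15 tested genes of other double-stranded RNA binding proteins, 2 were called higher and 2 lower (median -0.01). *TARBP2*, a Dicer partner that also restrains PKR, had a log2 fold change of 0.84 (adjusted p = 0.00231) and *CDKN2AIP* one of 0.29 (adjusted p = 0.0477), while *DROSHA*, the nuclear microRNA processor, fell by 0.72 (adjusted p = 0.00161).

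Around *EIF2AK2*, the 15 genes of its substrate eIF2, the exchange factor eIF2B, the other eIF2 kinases and their regulators held 1 called higher and 3 lower (median log2 fold change -0.13). *EIF2B2* changed by 0.42 on the log2 scale (limma adjusted p = 0.0177), *EIF2S3* fell by 0.53 (adjusted p = 0.00427) and *EIF2B3* by 0.38 (adjusted p = 0.0116). Of the 6 tested cell death partners of *ZBP1*, 3 of which are also in the relay list, 1 was called higher and 4 lower (median -0.37). *RIPK1* had a log2 fold change of 0.25 (adjusted p = 0.0381), *MLKL*, the pore-forming executor of necroptosis, fell by 0.66 (adjusted p = 0.0106), and *CFLAR*, an inhibitor of caspase-8, by 0.47 (adjusted p = 0.0091). In a list of cytosolic DNA sensing, given beside the RNA sensors, 1 of 8 tested genes was called higher and 4 lower (median -0.30). This list also holds enzymes that are not sensors, and the gene called higher is such an enzyme. *SAMHD1*, a nucleotide hydrolase, had a log2 fold change of 1.71 (adjusted p = 7.73e-05), *DDX41* fell by 1.32 (adjusted p = 3.29e-05) and *PRKDC* by 0.48 (adjusted p = 0.00834). With 6 to 8 genes tested, a share of these small lists moves a good deal with 1 gene.

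**Figure D5:**
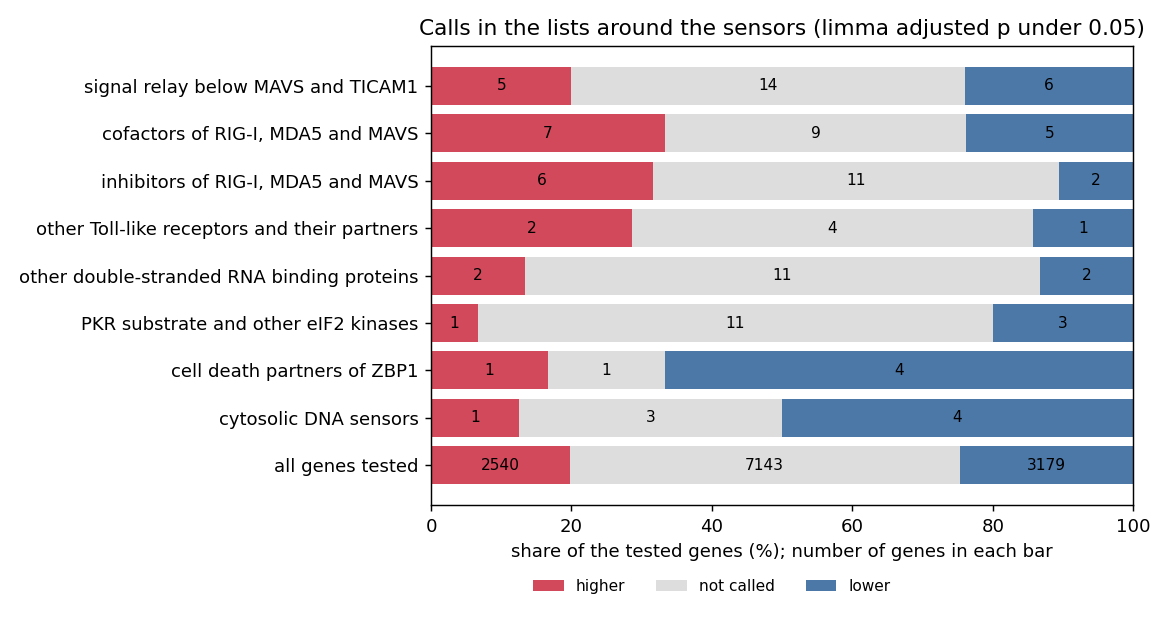
Share of the tested genes (horizontal axis, %) called higher (red), lower (blue) or not called (grey) in 8 lists around the sensors and in all 12862 genes tested, with the number of genes in each bar. The relay list, with 5 higher and 6 lower of 25, is split much like all genes tested, and no list is called in 1 direction throughout.

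The labelled cell type and other cell types were checked by markers. Of 12 markers of MDA-MB-453 cells all were tested, 2 were called higher and 8 lower (median log2 fold change -0.56), among them *TFF3* at 1.20, *SPDEF* at -1.05 and *ERBB2* at -0.99 (limma adjusted p = 0.00172, 4.86e-04 and 1.59e-04). *ERBB2* kept a mean value of 495 ± 33.6 (SD, n = 3) with *DUSP6* siRNA. Of 20 leukocyte markers, cells that can hold *TLR3*, *ZBP1* and *DHX58*, 14 were in the table, 12 of these had a mean value under 1, and the summed value was 7.57 to 9.07 with scrambled siRNA and 9.43 to 11.8 with *DUSP6* siRNA. Of the 2 tested, *FLT3* was called higher, with a mean of 2.08 against 4.70 (log2 fold change 0.90, adjusted p = 0.00121), and *CD68*, the largest part of the sum, was not called, with a mean of 5.00 against 4.53 (log2 fold change -0.13, adjusted p = 0.518). The difference in the sum is that of *FLT3*, and *PTPRC*, the pan-leukocyte marker, was 0 to 0.0362 and 0.0367 to 0.0809. Of 10 fibroblast and endothelial markers, 9 were in the table and 8 were under 1, and their sum of 81.3 to 106 and 162 to 193 was nearly all *COL1A1*, the one tested (log2 fold change 0.90, adjusted p = 4.21e-04). Both sums were thus higher with *DUSP6* siRNA through 1 gene each, and their part in the results was not tested. In bulk RNA, more cells that express a gene and more RNA of it per cell cannot be told apart.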

How the data were processed

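RNA of 6 libraries was sequenced with a stranded mRNA kit. The authors aligned the reads to hg38 and counted them on RefSeq genes with Rsubread at default settings, and the labels also list bcl2fastq and edgeR. They deposited 1 normalized signal value per gene and library, and their methods do not name the normalization. Within a library, 100% of the values were whole multiples (within 8.38e-09) of 1 step of 0.0121 to 0.0202, the worth of a single read under TMM scaling. Dividing by it gave back 45546981 to 85729785 reads per library.

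The test was limma 3.58.1 (R 4.3.3, lmFit, eBayes with a trend) on log2(value + 1) of the 12862 of 22807 genes whose mean value reached 1, with Benjamini-Hochberg adjustment. edgeR 4.0.16 was run on the recovered reads. Both were tested on simulated data. Pairs of members were compared by two-sided exact permutation tests. The genes named are the 9 members, *DUSP6*, up to 2 called genes with the largest change in each direction in each list (relay, cofactors, inhibitors, Toll-like receptors, RNA binding proteins, eIF2, *ZBP1* partners, DNA sensors, markers), and the 2 nearest profiles of each called member. *PTPRC* and *CD68* were named after their values were seen, and some genes that the rule names are not reported here. The members and lists were chosen with earlier results of these data known. Gene positions and promoters are from RefSeq and transcript lengths from GENCODE v44, both on GRCh38, of which hg38 is another name. Alternatives changed the scaling (median of ratios, quantile), the pseudocount (0.1), the filter (none, or a mean of 10) or the model (replicate block, eBayes without a trend, edgeR), or left out each library.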

Additional observations from a re-analysis of the deposited data

How the results depend on the processing

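*DDX58*, *IFIH1*, *EIF2AK2* and *ADAR* kept their direction and call under all 15 alternatives, with log2 fold changes of 4.23 to 4.49, 3.33 to 3.57, 1.95 to 2.18 and 1.48 to 1.82, and *DHX58* did so under the 14 that tested it (3.01 to 3.90). *TICAM1* passed the test under none, and *DUSP6* kept its call under all 15 (-2.22 to -1.76). The number of members called lower was 0 in place of 1 with quantile normalization, the replicate block and eBayes without a trend. It was also 0 in edgeR with or without the filter, the last chosen after seeing the data. With each library left out it was 0 to 1, and *MAVS* kept its call only without scrambled siRNA replicate 3. Wherever the number was 0, *MAVS* had lost its call, and the cause was not tested. The number of genes called higher was 1639 with a mean value of at least 10, which tests fewer genes, and 1535 to 3213 with each library left out, lowest without *DUSP6* siRNA replicate 2 and 1686 without replicate 3. With the replicate block, 2495 genes were higher and 3096 lower. Same-numbered libraries deviated together at r of 0.01, 0.09 and -0.08, and not every library correlated best with its own number. These values give no sign of pairing by number, but with 3 libraries per group they cannot exclude it. *TLR3* and *ZBP1* were called higher without a filter (limma log2 fold change 0.66 and 0.11, adjusted p = 0.00177 and 0.009). That fit called 2981 of 22807 genes higher. Depth limits both, at 7 and 0 reads with scrambled siRNA.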
